A study of Mus musculus with 34 samples.

Results

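Cytosolic ribosomal protein genes encode the protein part of the large (Rpl) and small (Rps) subunits of the ribosome that translates nuclear messenger RNA. They were taken by gene name from 2 deposited tables of H3K27ac tags per region: every region of 2000 bp whose annotated nearest gene was a ribosomal protein gene no more than 100000 bp away was kept, and tags were summed per gene. The rule found 73 genes of 18476 in either table. The table of liver and blood cells held 72 of them among 17205 genes, in 237 of 78174 regions. The table of cultured macrophages held 72 among 17860 genes, in 246 of 87641 regions, and 71 genes stood in both.

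The series holds 34 mouse ChIP-seq samples, of which 12 are input samples that were not analysed here. In 10 libraries the acetylated lysine of histone H3 that is called H3K27ac was profiled, which marks promoters and enhancers in use. In 12 libraries the factors LXR, SMAD4 and RBPJ were profiled. Each group had 2 libraries. The question was how myeloid cells acquire the enhancers of Kupffer cells, the resident macrophages of the liver.

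The H3K27ac groups were as follows. Kupffer cells were untreated, with the strain C57BL/6J in the sample labels, although the series text places them in Clec4f-Cre/DTR mice. Repopulating liver macrophages (RLM) came from Clec4f-cre/Rosa26iDTR mice 24 h after diphtheria toxin; in these mice Clec4f, a gene of Kupffer cells, drives the recombinase that lets the toxin receptor be made. Blood Ly6C-high monocytes came from untreated C57BL/6J mice. Bone marrow-derived macrophages (BMDM) of C57BL/6J mice had been cultured for 4 days, either with the Notch ligand DLL4 for 24 h or untreated. LXR was profiled in untreated Clec4f-cre Kupffer cells and in C57BL/6J BMDM cultured for 7 days and given the agonist GW3965 for 18 h. SMAD4 and RBPJ were profiled in nuclei of untreated Clec4f-cre Kupffer cells and in untreated C57BL/6J BMDM cultured for 4 days. Cell type, strain and toxin differ together between RLM and either other cell, so their parts in a difference cannot be told apart. Whether the 2 libraries of a group stem from different mice or cultures is not in the labels, so p-values measure only the spread between these samples. In such bulk samples, fewer cells that carry the mark and less of the mark per cell cannot be told apart.

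Ribosomal proteins are needed in nearly equal numbers, and their genes are spread over many chromosomes. Their promoters are usually active in every dividing or growing cell. Many begin transcription at a C inside a run of pyrimidines, the terminal oligopyrimidine (TOP) motif, through which the TOR pathway controls translation of their messages. For these reasons the genes often serve as a set whose activity is taken to be steady, and they are described here beside a list of 29 housekeeping genes such as Actb, Gapdh and Tbp.

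Sequences around the start help to place the promoter regions described below. Of the 73 genes, 52 had a promoter window in RefSeq (build GRCm38.p6). The first 6 stretches, chosen because their genes had some of the widest differences between cells, run from 20 bases before the annotated start to 20 after it, with capitals for the pyrimidine run that begins at a C beside the start. Rpl22 lies at chr4:152325706-152325745 on the plus strand, Rpl12 at chr2:32961692-32961731 on the plus strand and Rps24 at chr14:24490658-24490697 on the plus strand. Rps15a lies at chr7:118116128-118116167, Rpl9 at chr5:65391412-65391451 and Rpl39 at chrX:37085203-37085242, all on the minus strand.
Rpl22: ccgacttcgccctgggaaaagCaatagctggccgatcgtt
Rpl12: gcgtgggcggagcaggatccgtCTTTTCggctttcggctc
Rps24: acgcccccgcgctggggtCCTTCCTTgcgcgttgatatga
Rps15a: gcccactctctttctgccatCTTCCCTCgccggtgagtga
Rpl9: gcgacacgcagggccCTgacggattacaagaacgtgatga
Rpl39: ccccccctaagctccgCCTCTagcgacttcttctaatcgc

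The run was 8 bases long in Rps24 and Rps15a, 6 in Rpl12, 5 in Rpl39, 2 in Rpl9 and 1 in Rpl22, taking the longest run that begins at a C no more than 5 bases from the start. Pyrimidines that stand farther upstream, such as the C bases just before the capitals of Rpl9, were not counted. A run of at least 5 pyrimidines from a C within 5 bases of the start stood in 22 of the 52 windows (42.3%), against 18.3% of all 32851 RefSeq windows. The annotated start can lie some bases from the one used in these cells, so a short run says only what stands at that annotated base.

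The next 3 stretches run from 130 bases before the start to 20 after it and are shown because CCGGAAG, the core of the sites of ETS factors, was the motif whose share stood furthest above that of all windows. Capitals mark this motif on either strand. Rps21 lies at chr2:180257249-180257398, Rps25 at chr9:44407584-44407733 and Rplp2 at chr7:141447521-141447670, all on the plus strand.
Rps21: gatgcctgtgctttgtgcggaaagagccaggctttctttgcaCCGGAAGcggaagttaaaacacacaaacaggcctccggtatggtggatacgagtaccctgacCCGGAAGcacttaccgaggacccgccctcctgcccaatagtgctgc
Rps25: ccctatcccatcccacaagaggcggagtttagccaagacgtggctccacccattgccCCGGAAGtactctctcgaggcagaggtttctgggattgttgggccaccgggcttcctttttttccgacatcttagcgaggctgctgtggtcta
Rplp2: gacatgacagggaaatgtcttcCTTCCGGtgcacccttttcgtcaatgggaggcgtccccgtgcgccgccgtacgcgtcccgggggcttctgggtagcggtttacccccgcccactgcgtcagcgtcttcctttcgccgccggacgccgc

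Counted from the start, Rps21 held the motif at -88 and -26, Rps25 at -73 and Rplp2 at -108. In windows of 250 bases before to 50 after the start, searched on both strands, CCGGAAG stood in 18 of 52 ribosomal protein genes (34.6%) and in 8.86% of all windows. GGGCGG, the box bound by Sp1, stood in 31 (59.6%) and in 35.7% of all windows, while TATAAA stood in 4 (7.69%) and in 13.6%. AAGATGGC, a core bound by YY1, stood in 3 (5.77%) and in 2.75%, CACGTG (the E-box) in 5 (9.62%) and in 7.15%, and the core bound by NRF1 in 1 (1.92%) and in 0.971%.

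Motifs of the profiled factors were searched likewise. TGGGAA, the core bound by RBPJ, stood in 12 (23.1%) against 25.6%. AGGTCA, a half-site of nuclear receptors such as LXR, stood in 4 (7.69%) against 16.3%, and GTCTAGAC, a palindrome bound by SMAD proteins, in 0 against 0.213%, a share too low for a count of 0 in 52 windows to show a difference. The windows of the ribosomal protein genes also differed in composition from all windows, with a median GC content of 57.0% against 52.7% and a median of 21 CpG dinucleotides against 7, and CCGGAAG holds a CpG. A match is a description of letters only.

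Depth was 8.22 and 19.5 M tags (M, mega) in the regions of the Kupffer cell libraries, 7.37 and 9.47 M in those of RLM, with monocytes at 11.6 and 12.3 M. DLL4 libraries held 22.0 and 21.6 M and untreated BMDM 20.2 and 27.2 M. The labels were checked against fixed markers, summed as tags per M (CPM, over the scaled total of the tested genes). The 7 Kupffer cell markers summed to 1958 and 2245 CPM in Kupffer cells, 444 and 470 in RLM, and 147 and 127 in monocytes, and none of the 7 was at 0 in any library. The 7 monocyte markers summed to 225 and 237 CPM in Kupffer cells, 514 and 494 in RLM, and 590 and 569 in monocytes. Of 9 hepatocyte genes 4 had regions, which summed to 49.9 and 51.6 CPM in Kupffer cells, 20.5 and 22.0 in RLM, and 16.8 and 17.8 in monocytes. The 4 erythroid and megakaryocyte genes with regions summed to 58.2 and 64.8 CPM in Kupffer cells, 108 and 96.4 in RLM, and 55.4 and 67.1 in monocytes. Among these, Pf4 had 31.98 and 45.7 CPM in Kupffer cells, 35.1 and 35.02 in RLM, and 5.54 and 4.65 in monocytes, while Tal1 had 6.23 and 3.70, 51.8 and 45.3, and 36.6 and 47.8 CPM in the same order. The 9 endothelial genes summed to 209 CPM in each Kupffer cell library, 137 and 135 in RLM, and 120 and 103 in monocytes. Most of the Kupffer cell sum was Stab2 (79.1 and 72.4 CPM) and Pecam1 (94.1 and 110 CPM), both highest there. Kdr, Erg, Lyve1, Clec4g and Tek were instead lowest in Kupffer cells. Kdr had 8.35 and 7.73 CPM there, 17.1 and 19.2 in RLM, and 22.2 and 21.4 in monocytes. Cdh5 and Sox18 overlapped between Kupffer cells and another group. The 7 neutrophil genes summed to 249 and 303 CPM in Kupffer cells, 118 and 101.3 in RLM, and 145 and 172 in monocytes. Most of the Kupffer cell sum was Csf3r (193 and 257 CPM), which was highest there, as were Mmp9 and Elane. Ly6g, Cxcr2 and S100a9 were instead lowest in Kupffer cells, and S100a8 overlapped between groups. Ly6g had 2.55 and 1.43 CPM in Kupffer cells, 6.51 and 6.26 in RLM, and 10.4 and 10.6 in monocytes. Lymphocyte genes (5 of 9 with regions) summed to 22.2 and 22.5 CPM in Kupffer cells, 42.7 and 28.5 in RLM, and 55.4 and 74.0 in monocytes. The part of these cell types in the differences below was not tested.

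The median ribosomal protein promoter carried more H3K27ac than most promoters. Levels between genes were compared at the single region of 2000 bp nearest to the start, since all regions have this width. The median over 71 promoters was 23.8 and 27.5 CPM in Kupffer cells, 34.7 and 31.6 in RLM, and 25.2 and 25.8 in monocytes. Over all 12006 promoters it was 14.9 and 15.1, 14.2 and 14.1, and 14.6 and 15.7 CPM in the same order. The median ribosomal protein promoter thus stood at percentile 66.5 and 68.2 in Kupffer cells, 76.8 and 74.6 in RLM, and 66.6 and 64.6 in monocytes. In BMDM the median over 69 promoters was 16.9 and 17.3 CPM with DLL4 and 17.0 and 17.7 CPM untreated, against 12.2 to 12.5 CPM over all 11636 promoters. It stood at percentile 61.7 and 62.0 with DLL4 and 62.0 and 63.1 untreated. Some single promoters stood lower, such as those of Rplp0 and Rps24, at percentile 44.0 and 23.9 of the mean over the BMDM libraries.

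The level varied widely among the genes. In the liver and blood cells Rpl9, Rpl18, Rpl19 and Rpl27a, all of the large subunit, had the highest mean promoter levels. Rpl18 had 50.3 and 65.6 CPM in Kupffer cells, 72.7 and 68.6 in RLM, and 88.3 and 84.7 in monocytes. Rps4l, annotated as a transcribed pseudogene, was lowest with 1.5 to 3.8 CPM over the 6 libraries. Rps4x, an X-linked gene of the small subunit, had 4.8 to 8.8 CPM. Rpl36a and Rps24 completed the lowest 4. In BMDM Rpl19, Rpl18, Rpl10a and Rps27a were highest, the last of which makes a fusion of ubiquitin and a ribosomal protein. Rps24, Rpl38, Rpl36 and Rps4x were lowest in BMDM, between 4.4 and 6.9 CPM.

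**Figure D1:**
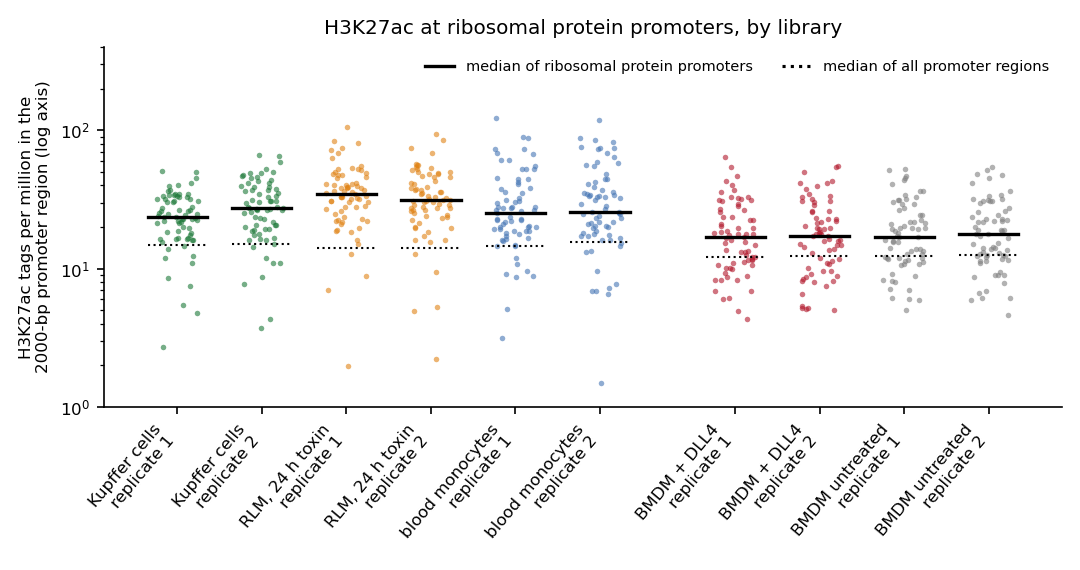
H3K27ac at the region nearest to each ribosomal protein start, in CPM on a log axis, with 1 point per gene in each library, and the median over all promoters for comparison. The medians of the ribosomal protein promoters lie between 23.8 and 34.7 CPM in the liver and blood libraries, with both RLM libraries highest, and between 16.9 and 17.7 CPM in BMDM.

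The reads of these genes also call for care. Mouse ribosomal protein genes have many processed pseudogenes with near-identical exons, and how reads with several matches were placed is not given in the sources used here. A region was assigned to its nearest start, which does not show that it acts on that gene, and 2000-bp regions overlap, so that a tag can count more than once in a gene sum. Rpl7a, Rps27, Rps2 and Rps18 had no region under their own name, because their promoter regions carried the names Med22, Rab13, Snhg9 and Vps52. Rpl15 had a single far region in BMDM, at 0.3 to 1.3 CPM, and its promoter carried the name Nkiras1. No region was named for Rpl32l, Rpl6l, Rpl10l, Rpl39l or Rpl3l, close relatives of other members, and Rps28 had no region within 1000 bp of its start.

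The first comparison set RLM against the blood monocytes from which such macrophages derive. Acetylation at ribosomal protein genes was on the whole higher in RLM. By edgeR's quasi-likelihood test with Benjamini-Hochberg adjustment over 16749 genes, 27 of the 72 rose and 8 fell at an adjusted p under 0.05, where 15.3% of all genes rose and 17.1% fell (32.4% together). At a fold of at least 2, 9 rose (6.20% of all genes) and 1 fell (5.80% of all genes). The median log2 difference was 0.37, against 0.07 over all genes and -0.03 over 27 housekeeping genes, of which 6 rose and 8 fell. These 72 genes were all that the table held, and all 72 passed the filter on low counts.

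**Figure D2:**
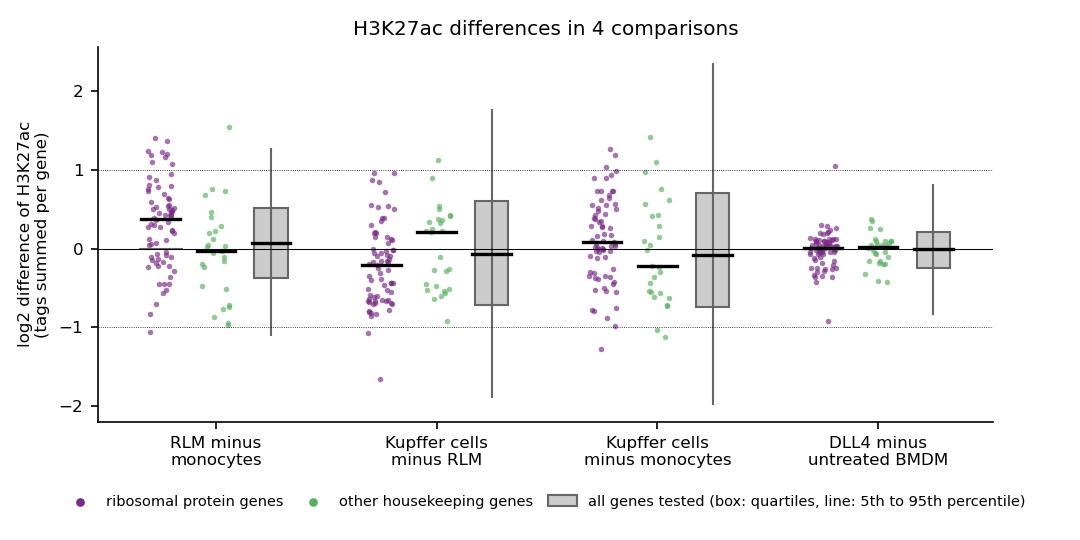
Log2 differences in summed H3K27ac of the ribosomal protein genes, the housekeeping genes and all genes tested, for the 4 comparisons. Points are genes, the box and line show the spread of all genes tested, and black bars are medians. The ribosomal protein genes centre at 0.37 between RLM and monocytes, -0.20 between Kupffer cells and RLM, 0.08 between Kupffer cells and monocytes, and 0.01 between DLL4 and untreated BMDM.

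Of the 9 genes that rose by at least 2-fold, 7 belong to the large subunit, which has 44 of the 72 genes. Rpl22, which mouse alpha-beta T cells need for their development, had 83.6 and 84.1 CPM in RLM, against 33.7 and 29.7 CPM in monocytes. Its log2 difference was 1.40 (SE 0.18, adjusted p = 1.99e-07 by edgeR). Rpl10a, a protein of the mobile L1 stalk, had 201 and 200.3 CPM in RLM, against 75.9 and 79.4 CPM in monocytes (1.37, SE 0.15, adjusted p = 2.22e-08). In both genes each RLM library stood above each monocyte library by more than 2-fold.

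Rpl12, which forms the base of the stalk that recruits translation factors, had 66.8 and 67.9 CPM in RLM, against 29.9 and 27.2 CPM in monocytes (1.24, SE 0.18, adjusted p = 1.65e-06). Rpl19 had 226 and 201 CPM in RLM, against 92.1 and 93.2 CPM in monocytes (1.20, SE 0.16, adjusted p = 3.26e-07). Rps24, a small subunit gene linked to Diamond-Blackfan anaemia in people, had 60.6 and 49.6 CPM in RLM, against 27.2 and 22.0 CPM in monocytes (1.16, SE 0.21, adjusted p = 4.10e-05). The groups did not overlap in any of these genes. For genes picked by fold and adjusted p such a gap is nearly given, here and in the comparisons below. Rpl23a (1.19, SE 0.27), Rpl36 (1.10, SE 0.18) and Rps27l (1.07, SE 0.18), a relative of Rps27 that responds to p53, also rose by at least 2-fold. Without monocyte replicate 2 the genes past 2-fold in either direction numbered 6, with Rpl23a (0.89), Rpl36 (0.91), Rps24 (0.97) and Rpl39 (-0.84) short of it.

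Rpl5 and Rpl11 bind 5S rRNA and, when ribosome assembly is disturbed, the p53 regulator Mdm2. Rpl5 had 80.0 and 80.6 CPM in RLM, against 37.7 and 30.8 CPM in monocytes (1.23, SE 0.18, adjusted p = 2.37e-06), and Rpl11 rose by 0.73 on the log2 scale without reaching 2-fold. Among the 11 genes linked to Diamond-Blackfan anaemia in people, 5 rose and 0 fell at an adjusted p under 0.05, with a median of 0.56. They include Rps19, the gene most often affected, at 82.5 and 82.8 CPM in RLM, against 46.6 and 51.0 CPM in monocytes (0.76, adjusted p = 7.02e-04).

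Of the stalk proteins, which carry translation factors to the ribosome, Rplp1 rose (0.59) and Rplp2 fell (-0.56), and Rplp0 had 0.33 and did not pass. Genes of other known roles also did not pass: Rps6, the substrate of S6 kinase, at 0.30, Rps3, which forms part of the messenger RNA entry channel, at 0.19, Rpl3, near the centre of peptide bond formation, at -0.22, and Rpl13a at -0.11. The large subunit as a class had 19 higher and 6 lower of 44, and the small subunit 8 higher and 2 lower of 28.

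The gene that fell by at least 2-fold was Rpl39, whose protein lines the exit tunnel of the ribosome. It had 38.1 and 30.4 CPM in RLM, against 59.5 and 82.9 CPM in monocytes (-1.06, SE 0.19, adjusted p = 5.72e-05), and its groups did not overlap, though the monocyte libraries lay far apart. Rpl39 is X-linked, as are Rpl10 (-0.70, adjusted p = 8.45e-04), Rpl36a (-0.36, not passed) and Rps4x (0.31, not passed). The median of these 4 was -0.53, while that of all 452 tested genes of the X chromosome was -0.18 and that of all autosomal genes was 0.07. Rpl41, the shortest ribosomal protein, also fell, with a log2 difference of -0.83.

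The promoter regions taken alone gave the same picture. Of 71 promoters 20 rose and 9 fell at an adjusted p under 0.05 (12.2% and 16.7% of all promoters), and 8 rose and 2 fell by at least 2-fold (6.41% and 7.24%). Their median difference was 0.29, against -0.04 over all promoters and -0.11 over 27 housekeeping promoters, of which 3 rose and 6 fell. The largest difference was that of Rpl5, with 27.9 and 28.6 CPM in RLM, against 10.8 and 7.8 CPM in monocytes (edgeR adjusted p = 8.61e-07). The second promoter to fall by 2-fold was that of Rpl21 (-1.01). Of the promoter regions that carry another gene's name, that shared by Rps27 and Rab13 fell (-0.57, adjusted p = 0.0495) and those of Rpl7a, Rpl15, Rps2 and Rps18 did not pass.

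Genes that make or regulate ribosomes were set beside these. Of 38 tested genes of ribosome biogenesis, 12 rose and 6 fell, among them Npm1 (1.45, SE 0.20), a nucleolar chaperone, and Myc (1.44, SE 0.16), an activator of ribosome biogenesis, both higher in RLM, and Rrp1b (-1.12, SE 0.19), lower in RLM. Of 35 translation factor genes 11 rose and 2 fell, with a median of 0.15, and of 15 genes of the TOR pathway 7 rose and 2 fell, with a median of 0.43. Of 65 genes for mitochondrial ribosomal proteins, 13 rose and 8 fell, with a median of 0.10. Of 6 tested ribosomal genes whose names fall outside the rule, Rpl36al rose (0.71), Rpl7l1 fell (-0.63), and Rpsa, Fau, Rack1 and Rpl22l1 did not pass.

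**Figure D3:**
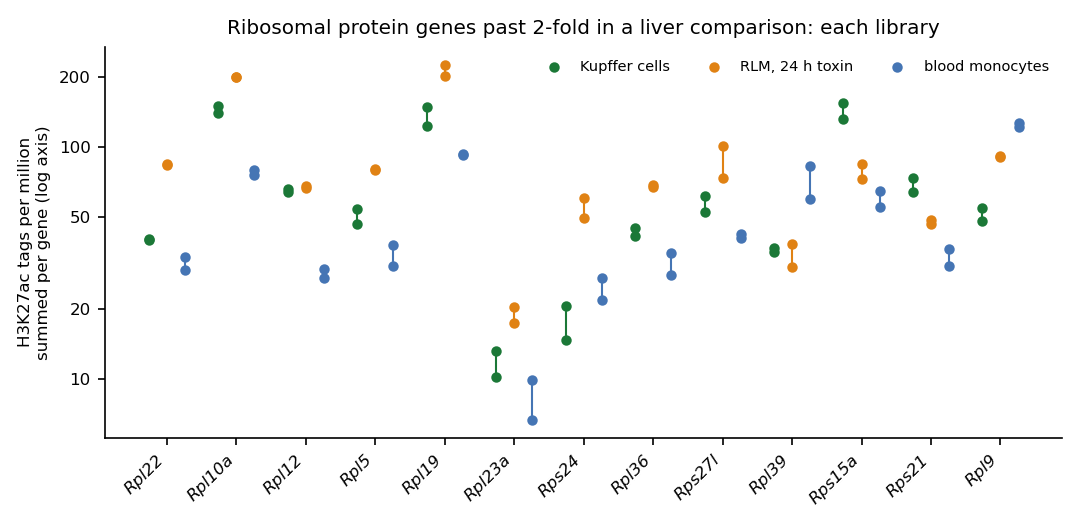
Summed H3K27ac in CPM, on a log axis, of the ribosomal protein genes with a difference of at least 2-fold in the liver and blood cells, with 1 point per library. RLM points lie highest for Rpl22, Rpl10a, Rpl5 and Rps24, Kupffer cell points lie highest for Rps15a and Rps21, and monocyte points lie highest for Rpl9 and Rpl39.

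The next comparison was of resident Kupffer cells with RLM. This comparison uses the same RLM libraries as the first, so the 2 are not independent. Ribosomal protein genes tended to carry less H3K27ac in Kupffer cells: 28 fell and 9 rose at an adjusted p under 0.05 by edgeR, where 23.0% of all genes fell and 27.5% rose. By at least 2-fold, 2 fell (12.8% of all genes) and 0 rose (14.6% of all genes). When libraries were scaled by their total tags the split was 36 lower and 5 higher. The median log2 difference was -0.20, against -0.07 over all genes and 0.21 over the housekeeping list. Of 27 housekeeping genes, 9 fell and 5 rose at an adjusted p under 0.05. Scaling by total tags moved the median of all genes to -0.29 in this comparison, to -0.34 between Kupffer cells and monocytes, and to -0.09 between DLL4 and untreated BMDM.

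The genes that fell by at least 2-fold were Rps24 and Rpl22. Rps24 had 20.7 and 14.7 CPM in Kupffer cells, against 60.6 and 49.6 CPM in RLM (-1.66, SE 0.21, adjusted p = 9.04e-08). Rpl22 had 40.2 and 39.7 CPM in Kupffer cells, against 83.6 and 84.1 CPM in RLM (-1.07, SE 0.18, adjusted p = 6.38e-06). The groups stood apart in both, and Rpl22 fell short of 2-fold when regions over 10000 bp from the start were left out (-0.97).

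Lower in Kupffer cells without reaching 2-fold were Rpl32 (-0.85), Rps6 (-0.83), Rpl11 (-0.71), Rps19 (-0.68) and Rpl5 (-0.68). Rps6 had 38.8 and 43.6 CPM in Kupffer cells, against 83.2 and 63.9 CPM in RLM. Of the genes linked to Diamond-Blackfan anaemia in people, 7 fell and 1 rose of 11. The large subunit had 18 lower and 4 higher of 44 genes and the small subunit 10 lower and 5 higher of 28.

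The largest positive differences were those of Rps9 (0.96), Rpl21 (0.96), Rps15a (0.87) and Rpl41 (0.85), which rose without reaching 2-fold. Rps9 had 102 and 110.0 CPM in Kupffer cells, against 54.1 and 54.6 CPM in RLM. Rplp0, the core of the stalk, rose by 0.39 in its sum, while its promoter region had -0.48 and did not pass. Rpl41 was uneven, with 29.4 and 50.9 CPM in the Kupffer cell libraries, against 23.8 and 21.4 CPM in RLM.

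Promoters alone were also mostly lower in Kupffer cells. Of 71 promoters 29 fell and 2 rose at an adjusted p under 0.05 (23.8% and 16.2% of all promoters, 39.9% together), and the median was -0.45 against -0.18 over all promoters. Promoters of the other lists were also lower: of 27 housekeeping promoters 9 fell and 1 rose (median -0.26), and of 35 translation factor promoters 14 fell and 1 rose (median -0.37). The promoters of Rps24 (-1.82) and Rpl22 (-1.16) fell by at least 2-fold and 0 rose so far (11.4% and 9.15% of all promoters), and those that rose at any fold were Rps9 (0.83) and Rpl41 (0.77). The promoter shared by Rpl15 and Nkiras1 also fell (-0.89, adjusted p = 6.18e-04). Related lists had 8 lower and 5 higher of 38 biogenesis genes and 13 lower and 4 higher of 35 translation factor genes. In the TOR list 5 were lower and 0 higher of 15, and of 65 mitochondrial ribosomal protein genes 17 were lower and 11 higher.

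Between Kupffer cells and monocytes, which share libraries with the comparisons above, the set as a whole was closer to balance. At an adjusted p under 0.05 by edgeR, 20 rose and 14 fell of 72, where 28.7% and 26.4% of all genes did (55.1% together). Total-tag scaling turned this split to 11 higher and 22 lower, and factors from the relative log expression method gave 21 higher and 9 lower, so no direction is given for the set. By at least 2-fold 3 rose (18.4% of all genes) and 1 fell (14.4% of all genes, 32.8% together). The median was 0.08, against -0.08 over all genes and -0.22 over the housekeeping list.

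Rps15a, of the small subunit, had 132 and 155 CPM in Kupffer cells, against 64.4 and 55.3 CPM in monocytes (1.26, SE 0.17, adjusted p = 8.96e-08). Rpl12 had 64.1 and 65.7 CPM in Kupffer cells, against 29.9 and 27.2 CPM in monocytes (1.18, SE 0.18, adjusted p = 7.59e-07). Rps21 had 63.8 and 73.4 CPM in Kupffer cells, against 30.6 and 36.3 CPM in monocytes (1.04, SE 0.18, adjusted p = 9.09e-06). Under total-tag scaling the differences of these 3 genes were 0.99, 0.92 and 0.78 and fell short of 2-fold.

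Rpl9 was the gene that fell, with 47.8 and 54.8 CPM in Kupffer cells, against 127 and 122 CPM in monocytes (-1.27, SE 0.16, adjusted p = 5.47e-08). RLM lay between them, at 90.7 and 91.3 CPM. At promoters alone Rpl9 (-1.43), Rpl39 (-1.20), Rpl34 (-1.14), Rps14 (-1.11) and Rpl4 (-1.04) fell by at least 2-fold and Rpl12 rose (1.04). These are 5 lower and 1 higher of 71, where 16.8% and 12.8% of all promoters were. At an adjusted p under 0.05, 17 promoters fell and 6 rose (32.0% and 18.9% of all promoters), with a median of -0.11 against -0.27 over all promoters. Of 27 housekeeping promoters 13 fell and 3 rose, with a median of -0.46.

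Related lists went both ways between Kupffer cells and monocytes. Of 38 biogenesis genes 11 rose and 11 fell, with Myc at 2.23 (SE 0.16) and Rrp1b at -2.72 (SE 0.21). Of 35 translation factor genes 8 rose and 12 fell, with Eef1a1, the main elongation factor, at 1.09 (SE 0.15). The TOR list had 3 higher and 3 lower of 15 and the mitochondrial ribosomal proteins 15 higher and 14 lower of 65. Of the ribosomal genes outside the rule, Rack1 (0.61) and Rpl36al (0.40) rose and Fau (-0.63), Rpsa (-0.63), Rpl7l1 (-0.71) and Rpl22l1 (-0.39) fell.

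How far these genes stay within a 2-fold range was read from the 95% interval of each difference. The interval lay wholly within 2-fold for 47 of 72 genes between RLM and monocytes (65.3%), against 47.1% of all genes. It did so for 49 between Kupffer cells and RLM (68.1%), against 37.6%, and for 51 between Kupffer cells and monocytes (70.8%), against 32.7%. Housekeeping genes had 17, 24 and 18 of 27 within 2-fold in the same order. At promoters alone 40, 39 and 51 of 71 ribosomal protein genes had such an interval, against 42.8%, 40.7% and 32.9% of all promoters. Higher tag counts narrow such an interval, and the part of the level of these genes in the shares was not tested.

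In BMDM, DLL4 was compared with no treatment. H3K27ac at ribosomal protein genes differed little: the interval lay within 2-fold for 70 of 72 genes (97.2%), against 73.0% of 16421 genes tested, and for all 69 promoters, against 79.9% of all promoters. At an adjusted p under 0.05 by edgeR, 4 rose and 5 fell (15.4% and 10.9% of all genes), and total-tag scaling gave 2 higher and 6 lower. The median was 0.01, against -0.01 over all genes and 0.02 over the housekeeping list.

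The 4 that rose were Rpl21, Rps14 (0.30), Rps29 (0.28) and Rpl19 (0.21). Those that fell included Rps27a (-0.37), Rpl5 (-0.35), Rpl31 (-0.30) and Rps15a (-0.26). Rps27a had 54.5 and 62.3 CPM with DLL4, against 76.0 and 74.5 CPM untreated (edgeR adjusted p = 0.0018). For Rps14 the promoter region differed by -0.14 and did not pass, so the rise was that of its other regions. Rpl15 had the lowest difference (-0.92), from 60 tags over the 4 libraries, and did not pass.

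Rpl21 alone rose by at least 2-fold, where 2.60% of all genes rose and 1.28% fell so far. It had 85.3 and 90.3 CPM with DLL4, against 40.1 and 44.3 CPM untreated (1.05, SE 0.10, adjusted p = 1.60e-14). The groups stood far apart, and the difference was 0.97 without untreated replicate 1. No promoter passed 2-fold by edgeR, where 1.54% of all promoters rose and 0.816% fell so far. At an adjusted p under 0.05, 1 promoter rose and 2 fell (7.28% and 7.10% of all promoters). They were Rpl21 (0.33), Rpl31 (-0.49) and Rps27a (-0.27).

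Of the lists beside them, 34 of 34 translation factor genes, 15 of 15 TOR genes and 7 of 7 ribosomal genes outside the rule also had intervals within 2-fold with DLL4. Heatr1, a biogenesis gene, rose by 1.32 (SE 0.08), the only one of 39 to pass 2-fold. The macrophage marker genes summed to 2236 and 2315 CPM with DLL4, against 1694 and 1686 CPM untreated.

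At Rpl21, a large subunit gene, the widest difference was in a region upstream of its promoter, whereas the promoter region held 36.1 and 40.8 tags per M with DLL4, against 30.0 and 33.8 untreated. In BMDM the region at -13410 bp from its start (chromosome 5, 146818480 to 146820480, intergenic, mm10) held 27.2 and 28.0 tags per M tags of the table with DLL4, against 2.97 and 1.73 untreated, from 598 and 606 tags against 60 and 47. The log2 difference was 3.65 (SE 0.18, adjusted p = 2.56e-17 by edgeR over all regions). Both DLL4 libraries were far above both untreated libraries. Regions at -8929 bp (1.41) and -3171 bp (1.14) also rose by at least 2-fold.

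The same upstream stretch differed among the liver and blood cells. The region at -13089 bp (chromosome 5, 146818801 to 146820801) held 41.5 and 50.8 tags per M in Kupffer cells, 19.0 and 23.1 in RLM, and 4.50 and 2.19 in monocytes. The 3 groups did not overlap, with Kupffer cells highest and monocytes lowest. Its log2 difference was 2.64 (SE 0.29, adjusted p = 1.62e-11 by edgeR) between RLM and monocytes, 1.28 (SE 0.24) between Kupffer cells and RLM and 3.92 (SE 0.29) between Kupffer cells and monocytes. The region at -8930 bp was higher in Kupffer cells than in RLM by 2.08 and than in monocytes by 2.79.

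The Rpl21 promoter region was highest in monocytes. It held 37.8 and 42.8 tags per M in Kupffer cells, 31.8 and 37.4 in RLM, and 64.2 and 72.2 in monocytes. Monocytes were above both other groups, by -1.01 for RLM against monocytes (adjusted p = 9.75e-05) and -0.64 for Kupffer cells against monocytes (adjusted p = 0.0064 by edgeR). The sum over all Rpl21 regions therefore hid opposite differences between RLM and monocytes, where it was -0.06. The upstream region also held peaks of the factors, given with the peaks further on. Its nearest named start is that of Rpl21, and whether it acts on Rpl21 was not measured.

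**Figure D4:**
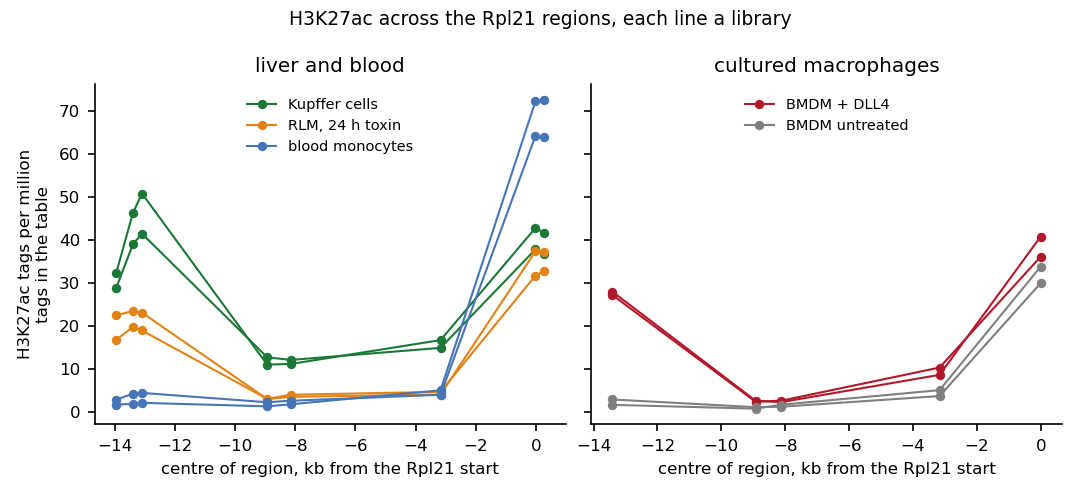
H3K27ac in tags per M at regions assigned to Rpl21, by distance of their centre from its start in kb, for the 3 liver and blood groups and for BMDM, with 1 line per library and 1 point per region. The farthest upstream regions are highest in Kupffer cells and in DLL4-treated BMDM, whereas the region at the start is highest in monocytes.

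Regions over 1000 bp from a start were tested apart from promoters. Of 107 such regions assigned to ribosomal protein genes, 28 rose and 10 fell by at least 2-fold in Kupffer cells against RLM (27.3% and 14.5% of all such regions, 41.8% together). The counts were 35 higher and 9 lower in Kupffer cells against monocytes (29.2% and 17.8%) and 8 higher and 5 lower in RLM against monocytes (9.19% and 9.99%). In BMDM 6 of 120 rose and 2 fell with DLL4 (5.93% and 3.02%).

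Far regions differed at several genes. For Rpl38, whose loss changes the body plan of mice, a region at -99865 bp (chromosome 11, 114567678 to 114569678) held 21.9 and 19.3 tags per M in Kupffer cells, 4.89 and 2.64 in RLM, and 0.78 and 1.38 in monocytes. The log2 difference was 2.61 between Kupffer cells and RLM and 4.33 between Kupffer cells and monocytes (edgeR adjusted p = 6.33e-10 and 1.08e-16). That between RLM and monocytes was 1.72, and without RLM replicate 1 it was 1.23 and did not pass. This region lies just inside the limit of 100000 bp.

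Rps15a differed at regions at -1547 to -2459 bp, where Kupffer cells exceeded monocytes by 1.44 to 1.88, while its promoter region had 0.52 and did not pass. These far regions of Rps15a overlap each other and share tags. For Rplp0, 4 regions at -20621 to -25770 bp exceeded RLM in Kupffer cells, by 1.27 to 2.16, and regions at -15830 and -16590 bp were lower. Some of these Rplp0 regions overlap as well.

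Peaks of the 3 factors were frequent at these genes. Shares are given beside those of all genes, not of housekeeping genes. The part of the H3K27ac level of these genes in the shares was not tested. A gene was counted where, in each library of a group, a deposited peak overlapped any of its H3K27ac regions by at least 1 bp. The peaks of the 2 libraries could therefore lie at different places of the same gene. LXR peaks stood at 64 of 72 genes in Kupffer cells (88.9%), against 65.1% of all genes, and at 46 in agonist-treated BMDM (63.9%), against 54.2%. SMAD4 peaks stood at 47 in Kupffer cell nuclei (65.3%), against 59.0%, and at 48 in BMDM (66.7%), against 50.1%. RBPJ peaks stood at 35 in Kupffer cell nuclei (48.6%), against 29.2%, and at 67 in BMDM (93.1%), against 86.6%.

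With promoter regions alone, the shares of ribosomal protein genes and of all genes were 78.9% and 61.1% for LXR in Kupffer cells and 52.2% and 34.3% for LXR in BMDM. They were 59.2% and 59.6% for SMAD4 in Kupffer cell nuclei and 59.4% and 40.3% for SMAD4 in BMDM. For RBPJ they were 33.8% and 18.7% in Kupffer cell nuclei and 94.2% and 79.6% in BMDM. Among peaks at least 8-fold over input the shares of ribosomal protein genes and of all genes lay closer together in 5 of the 6 groups. They were 36.1% and 39.3% for LXR in BMDM, 37.5% and 37.6% for SMAD4 in BMDM, and 4.17% and 4.31% for RBPJ in Kupffer cell nuclei. For LXR in Kupffer cells they were 63.9% and 54.7%, and for SMAD4 in Kupffer cell nuclei 56.9% and 56.1%. For RBPJ in BMDM the gap was wider, at 84.7% and 72.9%.

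The lists rest on 11.1 to 56.3 M tags and hold 11277 to 80480 peaks per library, and more peaks were called in some groups than in others. Per the file headers, the second LXR library of Kupffer cells had an input whose name states another diet than that of the ChIP. Shares are therefore not compared between factors or cells. With the second LXR library of Kupffer cells alone the count was 69 of 72, against 72.5% of all genes, and with the first alone 66, against 72.6%.

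**Figure D5:**
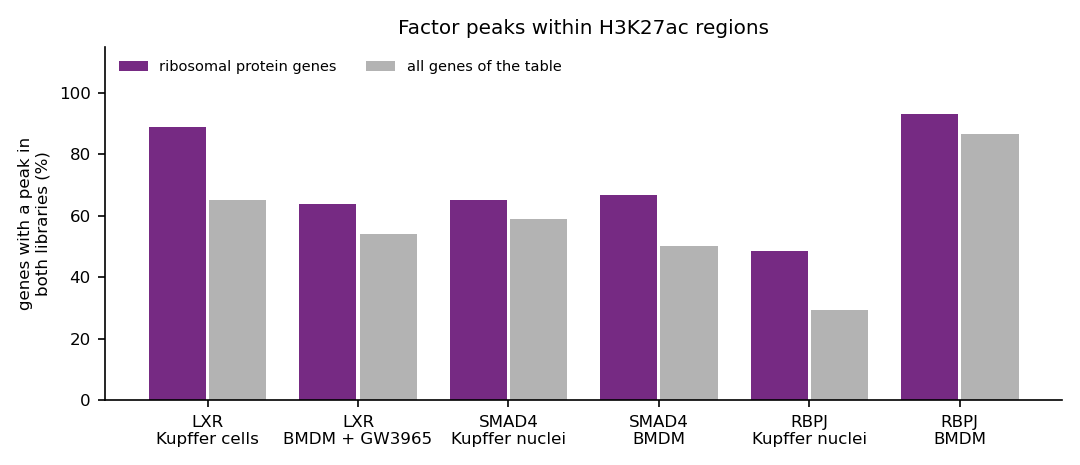
Share of ribosomal protein genes and of all genes with a peak in both libraries, in percent, for each factor in each cell type. The share of ribosomal protein genes lies above that of all genes in all 6 groups, from 48.6% against 29.2% for RBPJ in Kupffer cell nuclei to 93.1% against 86.6% for RBPJ in BMDM.

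Within 1000 bp of a start, peaks lay close upstream of it. Positions were taken for the genes with a RefSeq window, of which 22 to 48 had such a peak in each library. Relative to the annotated start the median peak centre lay between -70.5 and -34 bp in the 12 libraries. Peak positions at other genes were not measured, so this placement is not shown to be particular to these genes. At Rps25, shown above with CCGGAAG at -73, all 12 libraries held a peak, with LXR centres in Kupffer cells at -39 and -54 bp (24.9 and 13.7 normalized tags, scaled by the authors to 1e+07 tags per library). RBPJ centres in BMDM lay at -41 and -53 bp (74.1 and 58.9 normalized tags). Rpl22 also had a peak near its start in all 12 libraries, with SMAD4 centres in Kupffer cell nuclei at -13 and -17 bp (37.0 and 57.6 normalized tags). At Rplp2 the LXR peaks of Kupffer cells were centred at -66 and -95 bp (67.3 and 62.0 normalized tags), whereas in BMDM they lay at -324 and -358 bp (70.2 and 100.4).

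The highest peaks are given for each cell by itself. For LXR in Kupffer cells they included those at Rpl21 (196.7 and 70.8 normalized tags), Rps26 (65.9 and 117.7) and Rpl30 (78.4 and 105.1). In BMDM the highest LXR peaks were at Rps9 (172.4 and 179.3), Rps26 (154.1 and 194.5), Rps3 (95.4 and 121.3) and Rpl4 (101.9 and 99.9). For Rpl21 the peak lay not at the promoter but in the upstream regions described above, at chromosome 5, 146819417 to 146819583 in the first library and 146819425 to 146819627 in the second.

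SMAD4 in Kupffer cell nuclei was also highest at this upstream element of Rpl21, with 65.5 and 126.4 normalized tags, and high at Rps27l (64.9 and 78.2) and Rps28 (62.3 and 67.6). In BMDM SMAD4 was high at Rpl3 (169.6 and 95.5), Rps9 (137.3 and 121.4) and Rplp0 (191.1 and 64.6). At the upstream element of Rpl21 in BMDM, a SMAD4 peak stood in 1 of 2 libraries (23.7).

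RBPJ, the factor through which Notch acts, had low peaks in Kupffer cell nuclei, highest at Rpl18 (15.4 and 19.9), Rpl9 (15.0 and 14.8), Rps19 (15.2 and 11.4) and Rpl23 (15.4 and 9.27). In untreated BMDM it was highest at Rpl23a (237.4 and 178.4), Rpl3 (201.3 and 188.7) and Rps9 (198.9 and 185.3). At the upstream element of Rpl21 RBPJ had 9.86 and 10.0 normalized tags in Kupffer cell nuclei and 21.7 and 38.3 in BMDM, and LXR had 69.8 and 100.8 in agonist-treated BMDM. The RBPJ libraries of BMDM were made without DLL4, so the peak there was measured where H3K27ac was low.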

How the data were processed

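ChIP-seq was analysed from files the authors deposited. The H3K27ac tables hold raw tag counts per region of 2000 bp and library, with a nearest gene and its distance, per the file headers. Bowtie2, HOMER and the build mm10 are named per the submitters' processing notes, without versions. The factor peaks were called per library against 1 input with HOMER findPeaks, per the file headers. Each peak's signal (tags per 1e+07) and its fold over input are the authors' deposited values. No column was left unmapped (0), and 10 and 11 regions without a gene name were left out.

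Tags were summed per gene over regions within 100000 bp. edgeR 4.0.16 (R 4.3.3; TMM scaling, filterByExpr, robust quasi-likelihood test, all groups of a table in 1 fit) gave log2 differences, with Benjamini-Hochberg adjustment over all genes, and regions were tested likewise. A difference of at least 2-fold with an adjusted p under 0.05 was counted, as was any fold at that p. With 2 libraries against 2, an exact two-sided permutation test cannot go below 0.333, so none was used. Sequences came from RefSeq (GRCm38.p6), and Python 3.11.15 with pandas 2.3.3, numpy 2.4.6 and matplotlib 3.10.9 joined the files and drew the plots.

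Named genes are those past 2-fold, the 4 highest and 4 lowest per comparison, the 4 highest and lowest promoter levels, the 4 highest peaks per factor and cell, genes of known role, and genes with no region. Some genes that this rule names are not reported here, though counts over all genes include them. The genes and lists were chosen with earlier results of these data known. Alternatives were other scalings (DESeq2 1.42.0 among them), no filter, other sets of regions, a replicate block, leaving out each library, and, added after seeing the data, promoter regions named for another gene.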

Additional observations from a re-analysis of the deposited data

How the results depend on the processing

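Of the alternatives for single genes, 1056 values kept their direction and side of the threshold, and 24 lost and 26 gained a call. Another 17 changed sign with no adjusted p under 0.05 either way. A further 6 changed sign with an adjusted p under 0.05 in the main fit, the alternative or both. These 6 reversals were between gene sums and narrower sets of regions. Rplp0 in Kupffer cells against RLM was -0.23 with promoter regions and also with regions within 10000 bp, and -0.48 with the single nearest region. Against monocytes it was -0.11 with the nearest region. With DLL4, Rps14 was -0.11 with promoter regions and -0.14 with the nearest region. The cause was not tested.

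Counts past 2-fold in Kupffer cells against RLM were 8 with total tags and 4 without overlapping regions, and with DLL4 they were 0 with total tags, promoter regions, regions within 10000 bp or the nearest region. Leaving out a library gave 6 to 10 for RLM against monocytes, 2 to 6 for Kupffer cells against RLM and 0 to 1 with DLL4. Higher genes at an adjusted p under 0.05 numbered 5 with total tags and 2 with the nearest region for Kupffer cells against RLM (4 to 10 without a library). They numbered 11 and 7 for Kupffer cells against monocytes (13 to 19), and 2 and 1 with DLL4, where promoter regions gave 1 (2 to 4). Lower genes numbered 18 with promoter regions for Kupffer cells against RLM. With a library left out, which leaves 1 in a group, fewer genes fell in that comparison than with all libraries. In RLM against monocytes, both fewer higher and fewer lower genes were then counted. For Kupffer cells against monocytes they numbered 9 with DESeq2, with relative log expression factors and within 10000 bp, 8 with promoter regions and 22 with total tags (7 to 14). With DLL4 they numbered 1 with promoter regions, 3 within 10000 bp and 2 with the nearest region (3 to 5).

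Medians with the nearest region and with total tags were -0.44 and -0.43 for Kupffer cells against RLM, and -0.11 and -0.18 for Kupffer cells against monocytes (0.15 with promoter regions). With DLL4 they were -0.0376 and -0.0807, and the nearest region gave 0.27 for RLM against monocytes. Without a library they ranged from 0.24 to 0.37 (RLM against monocytes), -0.34 to -0.12 (Kupffer cells against RLM), 0.0779 to 0.215 (Kupffer cells against monocytes) and -0.00477 to 0.0207 (DLL4). Genes with peaks at least 8-fold over input numbered 26 for LXR in BMDM, 27 for SMAD4 in BMDM and 3 for RBPJ in Kupffer cell nuclei.

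Deviations from the group mean of libraries with the same replicate number correlated at -0.037 to 0.060 between groups. No effect shared by replicate number was thus seen, but this cannot show whether the libraries were paired in origin. With the replicate block the genes past 2-fold numbered 10, 2, 4 and 1, as without it, in RLM against monocytes, Kupffer cells against RLM, Kupffer cells against monocytes and DLL4 against untreated BMDM, and the medians were 0.37, -0.21, 0.08 and 0.01. With 2 libraries a group, depths from 7.37 M tags, unknown handling of reads shared with pseudogenes and far regions in the sums, small differences of single genes stay uncertain.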
